A study of Homo sapiens with 32 samples.

Results

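The collagen chain genes are the 43 measured genes of 19775 whose symbol reads COL, a number, A and a number, such as COL4A1. Each was read from probe sets that carry that symbol alone, and where several did, as for 35 of the 43 genes, its brightest probe set by mean over all arrays was used. The collagen genes have 112 probe sets in all, and COL17A1 was not analysed here. RNA was measured in A549 cells, a human line from a lung adenocarcinoma, and in H460a cells, a human line of large cell lung carcinoma that the series text calls H460. In each line, cells were given 2 µM RO4929097, an inhibitor of gamma-secretase (GSI), or vehicle, and were lysed after 6 or 24 h, with 4 arrays in each of the 8 groups. The labels name no genetic change in either line. Gamma-secretase cuts Notch receptors and many other membrane proteins, and Notch inhibition is the purpose given in the series title. Whether the 4 replicates of a group were grown as separate cultures is not in the labels; the p-values therefore reflect only how these arrays vary, and that variation may be technical.

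Collagens are triple helices of alpha chains, and each gene encodes a chain. Fibrillar collagens (types I, II, III, V, XI, XXIV and XXVII) build the fibrils of connective tissue, type IV chains form the sheet of the basement membrane on which epithelial cells rest, and the fibril-associated collagens decorate fibrils. Type VI forms beaded filaments, type VII anchors the basement membrane to the tissue beneath, types VIII and X form short-chain networks, and types XV and XVIII, the multiplexins, lie at basement membranes. Fibroblasts make most fibrillar collagen of the lung, while epithelial cells contribute to their own basement membrane.

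Levels are log2 of the deposited intensities, and a level is compared only with the same probe set on other arrays. The mean intensity of an array was 468 to 496 in the 4 A549 vehicle arrays at 6 h and 496 to 613 in the other 28, so comparisons that use the 6 h A549 arrays were also run with the arrays quantile-normalised, which gives every array the same distribution. H460a vehicle array 3 at 6 h stood apart by a difference of 2.19 between the 3' and 5' probe sets of ACTB, against 0.14 to 0.42 in the other arrays. In mean intensity A549 GSI arrays 3 and 4 at 6 h (589 and 583, against 496 and 531 in GSI arrays 1 and 2) and H460a GSI array 3 at 24 h (570) also stood apart from their groups; repeats without these 4 arrays are given beside the genes named here whose call they ended. Precision is limited by the number of arrays: differences between groups of 4 had a median standard error of 0.087 (log2). A difference passed where the limma adjusted p, by the Benjamini-Hochberg method over all 19775 genes, was under 0.05. Shares over all genes are from the deposited values and belong to the counts from those values. For counts under quantile normalisation or centring no such share is given. HES1, a Notch target, checks the inhibitor: its log2 level was 7.65, 7.74, 7.90 and 7.93 in A549 GSI arrays at 24 h, against 9.82, 9.98, 10.09 and 10.05 in A549 vehicle arrays. In H460a the HES1 level was 6.15 to 6.69 in the 4 group means and the effect of GSI did not pass at 24 h (adjusted p = 0.82, limma).

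As a guide to which genes are above background, the 95th percentile of the group means of 82 olfactory receptor genes was 7.08 on the log2 scale. The 22 collagen genes above it in at least 1 group were spread over the classes, and the other 21 lay under it in all 8 groups. In vehicle, 5 of the 6 type IV genes, 6 of the 11 fibrillar genes and 2 of the 5 type VI genes had means above it in A549, and the counts were the same in H460a. Of the 10 fibril-associated genes 3 were above it in A549 and 1 in H460a. The labelled epithelial origin was checked against 7 markers. KRT8 (12.87 to 13.88) and KRT18 (13.73 to 14.78), keratins of simple epithelium, were high in all 8 group means. CDH1, the epithelial cadherin, was 9.69 to 10.83 in the A549 groups and 4.23 to 4.80 in the H460a groups, and EPCAM was under background in both lines (4.69 to 5.90). KRT7 was 13.58 to 13.92 in A549 and 8.14 to 8.62 in H460a. KRT19 was 6.49 to 7.48 in A549, around background, and 13.43 to 13.79 in H460a. CLDN4 was 6.72 to 6.89 in A549, under background, and 6.87 to 7.31 in H460a. Of 8 fibroblast markers 4 had a group mean above background, ACTA2 (8.88 to 9.64), THY1 (7.61 to 8.08), DCN (7.19 to 7.44) and PDGFRB (6.98 to 8.01), and 4 had none, LUM, FAP, PDGFRA and TCF21. Of 9 endothelial and leukocyte markers CD14 (8.09 to 9.14), PECAM1 (7.18 to 7.76), TEK (7.11 to 7.38) and, in H460a alone of the 2 lines, KDR (7.62 to 9.57) were above it, and VWF, CDH5, PTPRC, CD3E and LYZ were under it in all groups.

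The lines differed in the level of many collagen genes, while the sets of genes above background were much the same. In at least 1 group, 21 genes were above background in A549, 20 in H460a and 19 in both. In vehicle arrays A549 was higher for 17 of the 43 genes and lower for 8, where 28.8% of all genes were higher, 27.9% lower and 56.7% passed in either direction, so the share of collagen genes that differed was close to the background. With the arrays centred on their medians the split was 11 higher and 13 lower. Of the 17 genes higher in A549, COL6A3, COL11A1, COL16A1, COL22A1 and COL24A1 had vehicle means under background in both lines. The genes higher in A549 included the common type IV pair. COL4A1, the alpha-1 chain found in nearly all basement membranes, had a median log2 level of 11.35 (lowest 11.10, highest 11.52) in the 8 A549 vehicle arrays and 7.97 (7.74 to 8.19) in the 8 H460a vehicle arrays, a difference of 3.38 ± 0.07 (SE, adjusted p = 8.7e-30, limma). COL4A2, its partner chain, had a median of 12.03 (11.88 to 12.15) in A549 and 9.52 (9.38 to 9.80) in H460a, a difference of 2.47 ± 0.06. The arrays of the lines do not overlap for either gene.

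**Figure D1:**
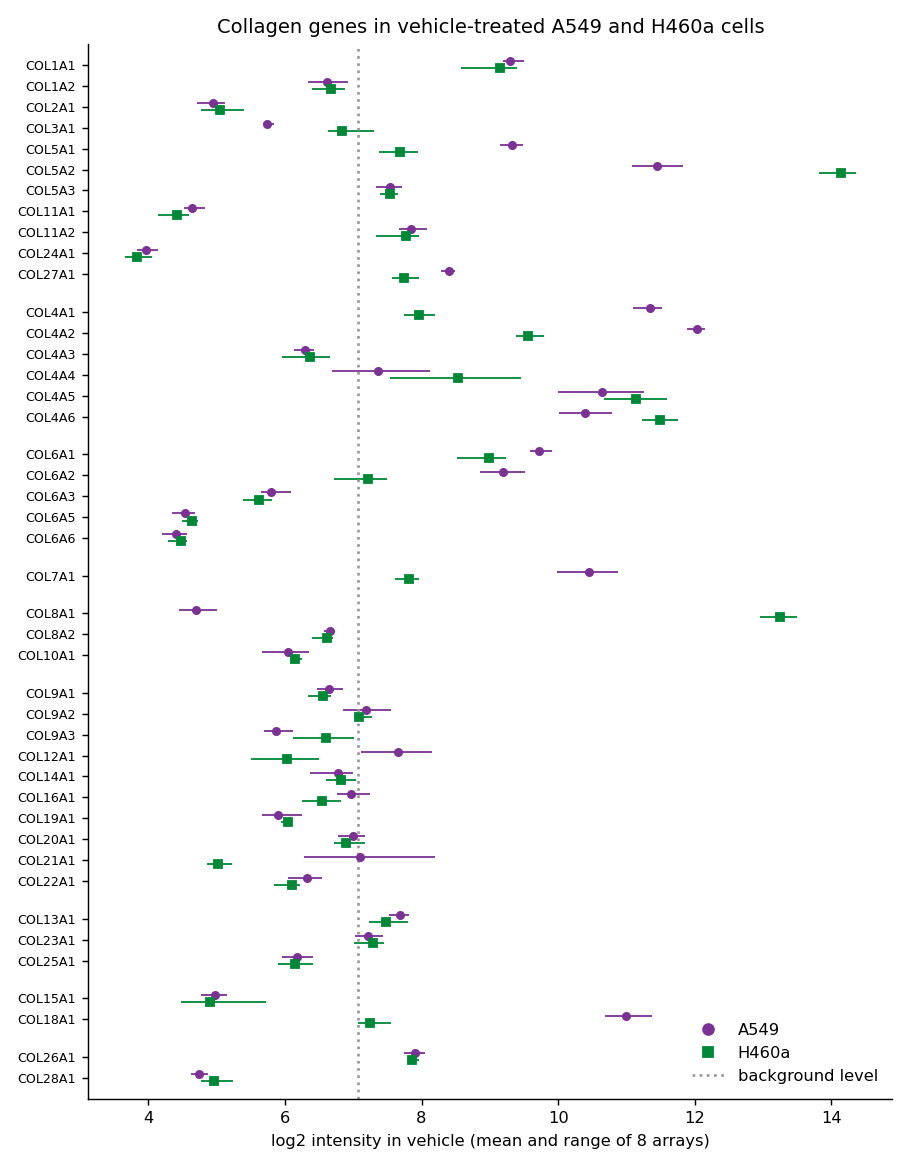
Log2 intensity of the 43 collagen genes in vehicle-treated A549 (circles) and H460a cells (squares), with the mean of 8 arrays, both times together, as the symbol and their range as the line; the dotted line is the background level of 7.08. COL4A1, COL4A2, COL7A1 and COL18A1 lie to the right in A549, and COL8A1 and COL5A2 in H460a.

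COL18A1, whose product carries the endostatin fragment at its end, differed by 3.74 ± 0.11, with a mean of 10.99 in A549 and 7.25 in H460a, and COL7A1, the anchoring fibril chain, by 2.64 ± 0.08. COL6A2 (1.98 ± 0.08) and COL6A1 (0.74 ± 0.06), which join in type VI filaments, COL5A1 (1.65 ± 0.07), a fibrillar chain that helps to start fibrils, and COL27A1 (0.67 ± 0.06) were also higher in A549. COL12A1 and COL21A1, fibril-associated chains, were higher in A549 by 1.63 ± 0.11 and 2.08 ± 0.08, and both were under background in H460a, so that these differences also depend on the background. Measured against the background level, COL12A1 was at least 1.5-fold higher in A549, and COL21A1 at least 1.01-fold. COL8A1, a network chain of type VIII, was lower in A549. It had a median of 4.62 (4.46 to 5.0) in A549, under background, and 13.36 (12.95 to 13.50) in H460a, a difference of −8.55 ± 0.08 (adjusted p = 2.1e-39, limma), and was at least 71.9-fold lower in A549 when the background level stands for the A549 level. COL5A2, the type V partner chain, was lower in A549 by 2.69 ± 0.05 on the log2 scale, with a median of 11.46 (11.08 to 11.83) in A549 and 14.18 (13.82 to 14.36) in H460a. Of the type V chains, COL5A1 was thus higher in A549 and COL5A2 lower, both above background in both lines. The remaining type IV genes were lower in A549 where they passed, with differences of −1.17 ± 0.08 for COL4A4, −1.10 ± 0.05 for COL4A6 and −0.50 ± 0.06 for COL4A5. COL4A3 was under background in both lines (means 6.29 in A549 and 6.37 in H460a). COL3A1 differed by −1.10 ± 0.06, also with both vehicle means under background. COL9A3 differed by −0.74 ± 0.08 and COL28A1 by −0.22 ± 0.06, both under background in both lines.

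GSI lowered a small set of collagen genes in A549 at 24 h. Of the 43 genes, 5 fell and 0 rose, where 0.885% of all genes fell, 1.32% rose and 2.21% passed in either direction. By class these were COL5A1 of 11 fibrillar genes, COL4A1 and COL4A2 of 6 type IV genes, COL21A1 of 10 fibril-associated genes and COL15A1 of the 2 multiplexins. The median of the 43 log2 differences was −0.06, against 0.007 over all genes. The 4 GSI arrays lay below the 4 vehicle arrays for 9 collagen genes (background 5.14% of genes) and above them for 0 (background 7.10%). In bulk RNA, fewer cells of a kind and less RNA per cell cannot be told apart.

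COL5A1 had log2 levels of 8.44, 8.57, 8.53 and 8.69 in the GSI arrays, against 9.21, 9.42, 9.48 and 9.37 in the vehicle arrays of A549 at 24 h. All 4 GSI arrays were below all vehicle arrays, and the gene fell by 0.81 ± 0.10 (SE, n = 4 each, 1.76-fold lower, adjusted p = 1.8e-06, limma). COL4A1 had levels of 10.70, 10.80, 10.91 and 10.84 with GSI, against 11.45, 11.49, 11.52 and 11.52 in vehicle. The groups did not overlap, and COL4A1 fell by 0.68 ± 0.10 (1.61-fold lower, adjusted p = 1.9e-05, limma). COL4A2 had levels of 11.61, 11.73, 11.69 and 11.78 with GSI, against 12.03, 12.15, 12.09 and 12.04 in vehicle. It too showed no overlap, with a smaller fall of 0.38 ± 0.08 (1.3-fold lower, adjusted p = 0.0063, limma). COL21A1 had levels of 7.01, 7.09, 7.04 and 6.87 with GSI, against 7.64, 7.95, 7.42 and 8.20 in vehicle. Its GSI arrays lay at the background level, so the fall of 0.80 ± 0.11 (adjusted p = 8.2e-06, limma) also depends on the background. COL15A1 had levels of 4.17, 4.23, 4.26 and 4.43 with GSI, against 4.77, 4.90, 4.77 and 4.85 in vehicle, under background in both groups. Its fall of 0.55 ± 0.14 (adjusted p = 0.035, limma) failed to pass when any of 7 of the 8 arrays was left out, all but GSI array 4, with adjusted p up to 0.11. The other 4 genes passed with each array left out in the test over genes. COL4A2 did not reach the added minimum difference of 0.58, and COL21A1, dim over all 32 arrays, was not among the genes tested at or above the median level; the 4 genes passed under the other settings tried.

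**Figure D2:**
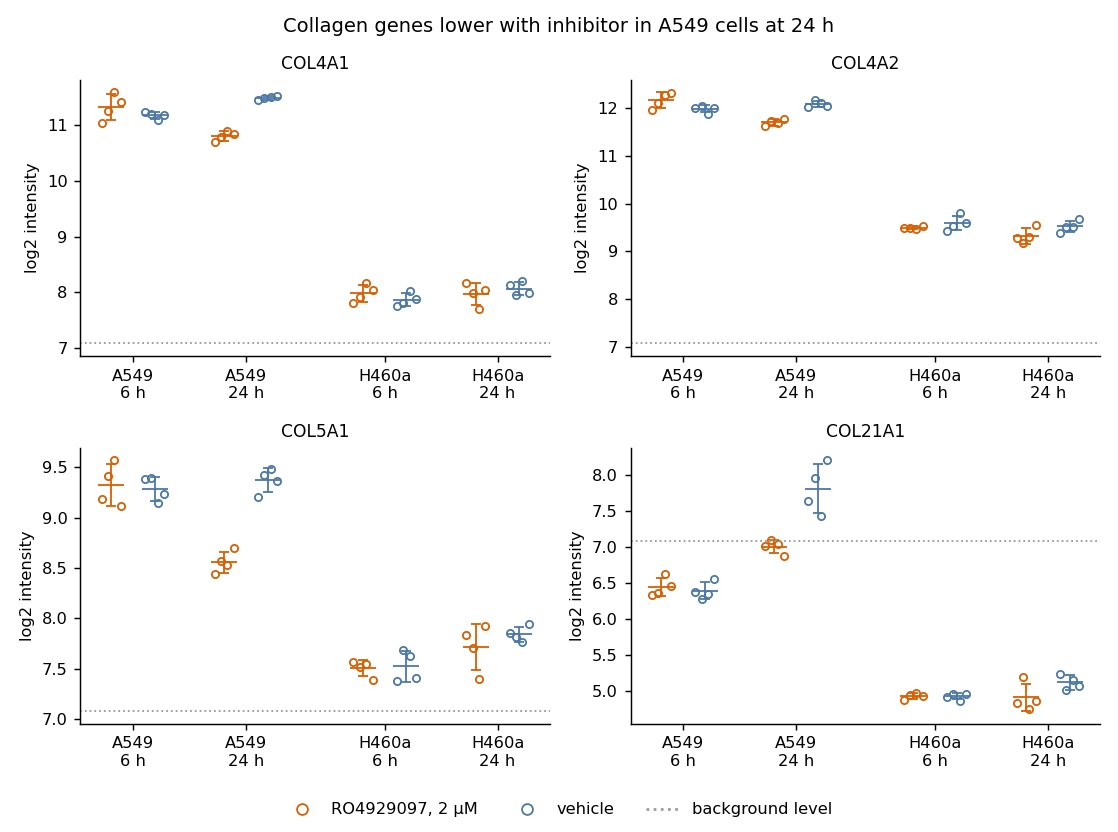
Log2 intensity of COL4A1, COL4A2, COL5A1 and COL21A1 on each array (open circles), with group means and SD (bars, n = 4), for RO4929097 to the left of vehicle at 6 and 24 h in A549 and H460a; the dotted line is the background level and the panels have different vertical ranges. The groups separate in A549 at 24 h, where all GSI arrays lie below the vehicle arrays.

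Several probe sets of these genes gave a check within the gene. Both other COL5A1 probe sets, 212488_at and 212489_at, fell in A549 at 24 h, with differences of −1.0 ± 0.07 and −0.99 ± 0.11 (adjusted p over all probe sets with 1 symbol 2.5e-11 and 3.4e-07, limma). The other COL4A1 probe set, 211981_at, fell by 0.64 (adjusted p = 0.0031), while the other COL4A2 probe set, 211966_at, had a difference of −0.36 that did not pass (adjusted p = 0.11). In the test over probe sets the COL4A2 probe set used here, 211964_at, passed (adjusted p = 0.011) but not without vehicle array 2 (adjusted p = 0.054).

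The promoter windows of COL4A1, COL4A2 and COL5A1 are shown because these genes fell above background and because COL4A1 and COL4A2 lie head to head. Windows are from RefSeq, build GRCh38.p14, and run from 250 bases before to 50 bases after each start site; 31 of the 43 collagen genes had a window in the table. COL4A1 lies on the minus strand (chr13:110307108-110307407) and COL4A2 on the plus strand (chr13:110307034-110307333). Their start sites are 127 bases apart and the windows share 226 bases. COL5A1 lies on the plus strand (chr9:134641553-134641852), the first of its 2 windows in the table. Capitals mark GGGCGG on either strand, the box that binds SP1:
COL4A1: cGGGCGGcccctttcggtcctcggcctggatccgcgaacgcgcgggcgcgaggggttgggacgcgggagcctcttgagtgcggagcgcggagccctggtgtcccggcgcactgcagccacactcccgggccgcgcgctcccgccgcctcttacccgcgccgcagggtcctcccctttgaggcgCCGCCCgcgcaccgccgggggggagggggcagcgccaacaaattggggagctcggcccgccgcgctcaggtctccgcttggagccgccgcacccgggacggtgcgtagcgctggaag
COL4A2: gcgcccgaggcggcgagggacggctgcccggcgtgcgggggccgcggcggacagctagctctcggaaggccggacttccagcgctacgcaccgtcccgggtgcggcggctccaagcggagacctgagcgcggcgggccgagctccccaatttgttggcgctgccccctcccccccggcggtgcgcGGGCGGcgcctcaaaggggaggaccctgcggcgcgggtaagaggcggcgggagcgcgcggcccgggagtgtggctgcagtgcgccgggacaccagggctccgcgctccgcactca
COL5A1: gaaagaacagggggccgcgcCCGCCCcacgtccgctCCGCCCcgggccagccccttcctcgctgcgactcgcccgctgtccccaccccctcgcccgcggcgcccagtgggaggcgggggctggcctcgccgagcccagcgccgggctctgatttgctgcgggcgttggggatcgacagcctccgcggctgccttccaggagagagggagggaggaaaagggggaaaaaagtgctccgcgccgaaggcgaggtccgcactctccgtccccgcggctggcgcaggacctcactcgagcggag

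The box occurs 2 times in the COL4A1 window, 1 time in the COL4A2 window and 2 times in the COL5A1 window, and 45% of all 35116 windows of this length hold it. The box at −67 from the COL4A1 start and the box at −65 from the COL4A2 start are the same bases, chr13:110307219-110307224, so the pair shares it. CAGAC, the core bound by SMAD proteins (in 45.3% of all windows), TGGGAA, the core bound by the Notch partner RBPJ (24%), and TGANTCA, the AP-1 element (7.71%), were searched on both strands and are not in these 3 windows. The windows are 74% to 77.7% G and C.

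The remaining chains of types V and IV did not pass with GSI in A549 at 24 h. COL5A2 had a level of 11.48 to 11.63 with GSI and 11.67 to 11.83 in vehicle in A549 at 24 h, without overlap, but its difference of −0.19 ± 0.07 did not pass (adjusted p = 0.24, limma). COL4A3, COL4A4, COL4A5 and COL4A6 had differences of 0.04 ± 0.15, 0.04 ± 0.11, 0.07 ± 0.09 and 0.12 ± 0.07, and COL4A6 had the highest of the 43. COL1A2 (−0.02 ± 0.09) and COL3A1 (−0.10 ± 0.09) did not pass either, with levels under background. Of the 4 other COL3A1 probe sets 1 passed, 201852_x_at, also under background (−0.44 ± 0.11, adjusted p over probe sets 0.035, up to 0.17 with an array left out). COL7A1 had a difference of −0.29 ± 0.11 (adjusted p = 0.21) with overlapping arrays. Its other probe set, 204136_at, had levels of 8.90 to 9.22 with GSI and 9.26 to 9.48 in vehicle, without overlap, and fell by 0.36 ± 0.09 (adjusted p over probe sets 0.034, and 0.029 with quantile normalisation). It passed without vehicle array 1 or GSI array 4 and not without any 1 of the other 6 arrays, with adjusted p up to 0.15.

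**Figure D3:**
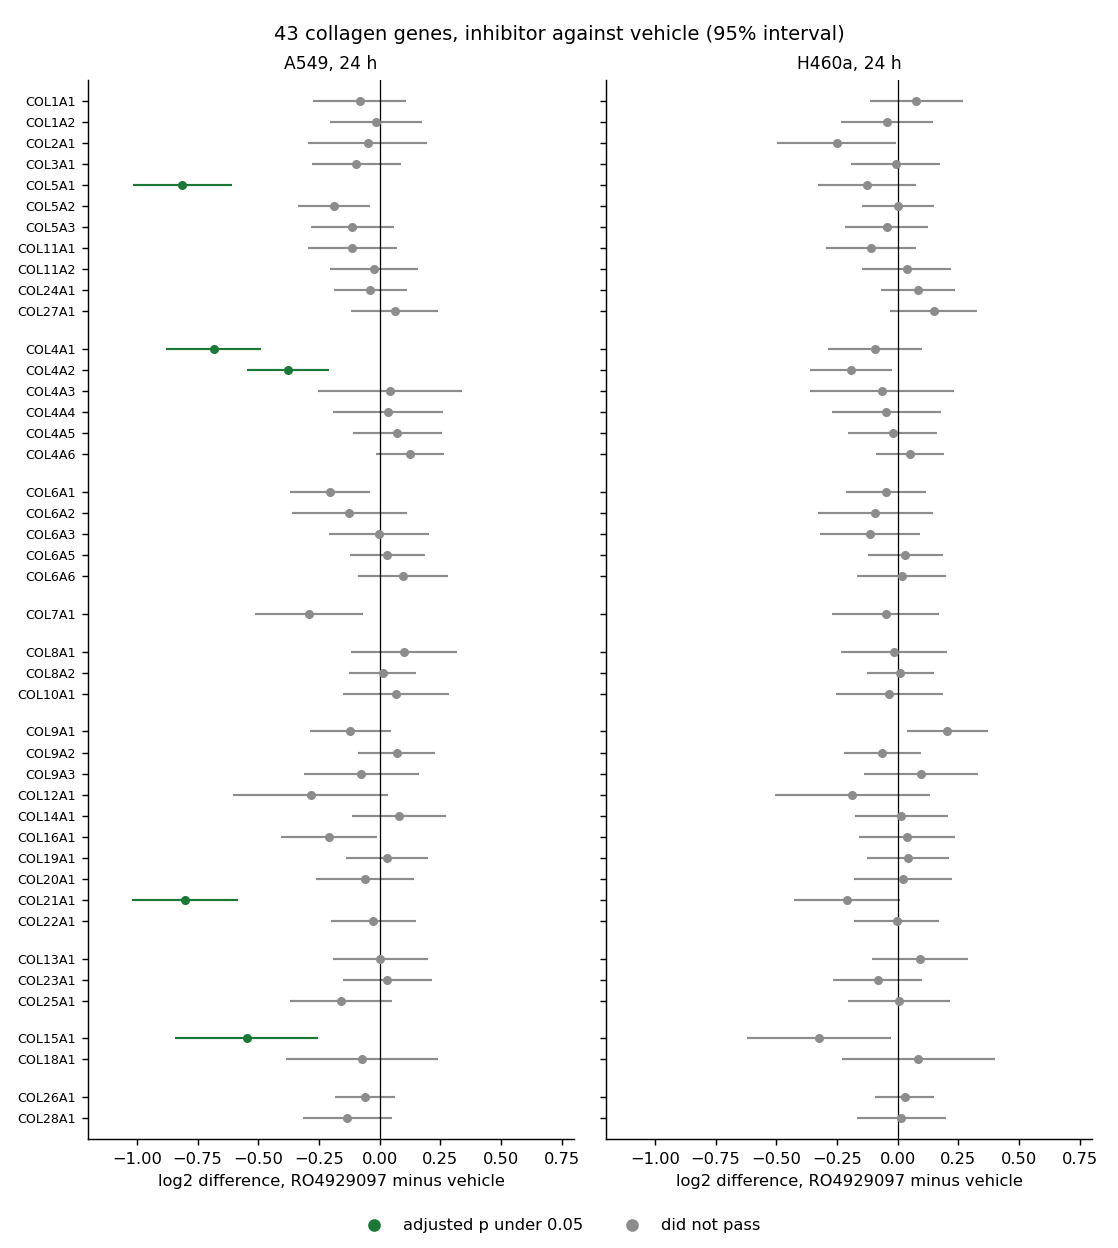
Log2 difference of RO4929097 minus vehicle at 24 h for the 43 collagen genes in A549 (left) and H460a (right), ordered by class, with 95% intervals; green marks an adjusted p under 0.05. In A549 the differences run from −0.81 (COL5A1) to 0.12, with 5 lower genes, and in H460a from −0.32 to 0.20 with none past the threshold.

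COL1A1, the alpha-1 chain of type I collagen, the main fibril collagen of connective tissue, gave different values from its probe sets, which were examined after their values were seen. The probe set used here by rule, 217430_x_at, had levels of 9.20, 9.19, 9.07 and 9.12 with GSI and 9.21, 9.29, 9.21 and 9.20 in vehicle in A549 at 24 h, a difference of −0.08 that did not pass (adjusted p = 0.83, limma). The probe set 1556499_s_at had 8.37, 8.51, 8.37 and 8.46 with GSI, against 9.55, 9.53, 9.58 and 9.54 in vehicle, with no overlap, a fall of 1.12 ± 0.12 (adjusted p over all probe sets 1.7e-07, limma). The probe set 202310_s_at had 8.04, 8.29, 8.23 and 8.17 with GSI, against 9.11, 9.01, 9.14 and 9.04 in vehicle, a fall of 0.89 ± 0.13 (adjusted p = 7.8e-05). Both kept their call with quantile normalisation (falls of 1.14 and 0.90) and with each array left out (highest adjusted p 2.6e-06 and 7.5e-04). The difference of 202312_s_at was 0.03 and that of 202311_s_at −0.10, neither past the threshold. The former had means of 7.07 with GSI and 7.05 in vehicle, at the background level, and the latter is under background.

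The same 2 probe sets set the lines apart. In vehicle, 1556499_s_at was higher in A549 than in H460a by 4.20 and 202310_s_at by 2.78 on the log2 scale, while 217430_x_at differed by 0.15 ± 0.07 (adjusted p = 0.048 over genes, passed under 11 of 25 alternatives, and 0.07 with an adjusted p of 0.17 without the 4 arrays that stood apart). Both were under background in the H460a vehicle mean, and against the background level they were at least 4.80-fold and 3.97-fold higher in A549. The difference of the GSI effects, A549 minus H460a at 24 h, was −1.09 for 1556499_s_at (adjusted p = 4.0e-04, limma) and −0.96 for 202310_s_at (adjusted p = 0.011). The log2 level of 217430_x_at was between 8.57 and 9.49 on all 32 arrays. Which part of the transcript each probe set reads was not analysed here. When the COL1A1 probe sets were averaged, the gene fell by 0.43 (adjusted p = 4.0e-06) in A549 at 24 h, against −0.08 with the chosen probe set.

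**Figure D4:**
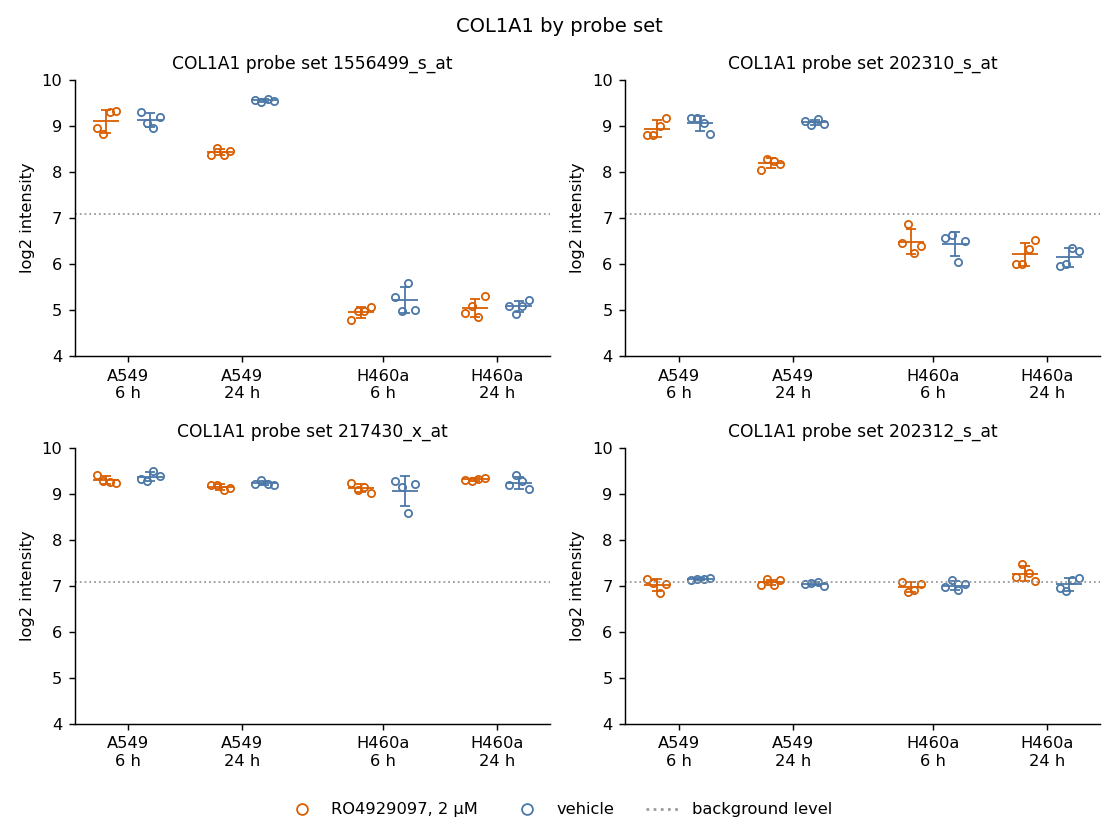
Log2 intensity of 4 COL1A1 probe sets on each array (open circles), with group means and SD (bars, n = 4), RO4929097 left of vehicle; the dotted line is the background level and all panels share a vertical axis. The 2 upper probe sets are high in A549 and lower with GSI at 24 h, where 217430_x_at and 202312_s_at are level across the groups. The values of 202312_s_at lie near the background level.

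At 6 h in A549 few collagen genes changed with GSI. Of the 43 genes 1 rose and 1 fell, where 11.6% of all genes rose, 1.51% fell and 13.1% passed in either direction. With quantile normalisation 0 rose and 2 fell, and those shares of all genes do not apply to these counts. Of those 2, only COL9A2 had also passed with the deposited values. The largest fall of the 43 in the deposited values was that of COL7A1 (−0.30), with means of 10.48 with GSI and 10.78 in vehicle. It did not pass with those values. COL9A2, a fibril-associated chain of cartilage, had levels of 7.10, 7.37, 7.19 and 7.13 with GSI and 7.36, 7.32, 7.50 and 7.56 in vehicle. These arrays overlap and lie near background, and the gene fell by 0.24 ± 0.08 (adjusted p = 0.041, limma); it no longer passed without vehicle array 3 or 4 or GSI array 1, 3 or 4, with adjusted p up to 0.45 over all settings. The gene that rose, COL4A5 (0.32 ± 0.09, adjusted p = 0.020), had a difference of 0.16 and an adjusted p of 0.22 with quantile normalisation. Its 1 other probe set went the opposite way and did not pass. Without the 4 arrays that stood apart neither gene passed, with 0.15 for COL4A5 (adjusted p = 0.57, limma) and −0.20 for COL9A2 (adjusted p = 0.45). COL4A1, COL4A2 and COL5A1 had differences of 0.15 ± 0.10, 0.18 ± 0.08 and 0.03 ± 0.10, and with quantile normalisation the COL4A1 and COL4A2 values were −0.06 and −0.07. Their intervals (95%) of −0.05 to 0.34, 0.01 to 0.35 and −0.17 to 0.23 do not include the falls seen at 24 h.

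The difference between times was tested itself. The GSI effect at 24 h minus that at 6 h in A549 was lower for 5 of 43 genes and higher for 0, where 3.05% of all genes were lower, 0.657% higher and 3.71% passed in either direction. It was −0.84 ± 0.14 for COL5A1 (adjusted p = 0.0011, limma), −0.83 ± 0.14 for COL4A1 (adjusted p = 0.0010) and −0.86 ± 0.15 for COL21A1 (adjusted p = 0.0021). These 3 genes passed under the settings tried, except that COL21A1 was not among the genes tested at or above the median level. COL4A2 had −0.56 ± 0.12 (adjusted p = 0.0097), but −0.32 and an adjusted p of 0.076 with quantile normalisation, and COL5A2 had −0.38 ± 0.10 (adjusted p = 0.038), but −0.18 and 0.23. Without the 4 arrays that stood apart these were −0.42 (adjusted p = 0.080, limma) and −0.23 (adjusted p = 0.19). The comparisons at 24 h minus 6 h and at 24 h share the 24 h arrays.

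In H460a none of the 43 genes passed at 6 h or at 24 h by limma, where 0.0961% and 0.00506% of all genes did. At an unadjusted p under 0.05 there were 2 genes at 6 h and 4 at 24 h. All genes were not counted at that level, so these counts have no background. COL5A1 had levels of 7.84, 7.70, 7.40 and 7.92 with GSI, against 7.85, 7.81, 7.76 and 7.94 in vehicle, in H460a at 24 h. COL4A1 had levels of 8.15, 7.99, 7.69 and 8.04 with GSI, against 8.12, 7.95, 8.19 and 7.99 in vehicle. The arrays of the groups overlap for both, and the differences were −0.13 ± 0.10 (95% interval −0.33 to 0.07) and −0.09 ± 0.10 (−0.29 to 0.10). COL4A2 had a difference of −0.19 ± 0.08 (−0.36 to −0.03) that did not pass after adjustment (adjusted p = 0.81, limma). HES1 was under background in all 4 group means of H460a. The GSI effect in H460a did not differ between times for any of the 43 genes by limma (background 0.0101%). At an unadjusted p under 0.05 there was 1, also without a count over all genes.

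Between the lines the GSI effect at 24 h differed for 2 of 43 genes, both lower in A549, where 0.273% of all genes were lower and 0.637% passed in either direction. The difference of effects, A549 minus H460a, was −0.68 ± 0.14 for COL5A1 (adjusted p = 0.012, limma), which passed under all 25 alternatives, and −0.59 ± 0.14 for COL4A1 (adjusted p = 0.030), which passed under 12 of 25. COL4A1 did not pass without any 1 of the A549 vehicle arrays at 24 h, without A549 GSI array 1 or 2, without H460a vehicle array 2 or 4 or without H460a GSI array 1, 2 or 4, and its adjusted p reached 0.18. Its other probe set, 211981_at, had −0.30 ± 0.18 and did not pass (adjusted p over probe sets 0.73), while both other COL5A1 probe sets did (−0.94 ± 0.10 and −0.91 ± 0.15). COL21A1 had −0.59 ± 0.15 (adjusted p = 0.065) and COL4A2 −0.18 ± 0.12 (adjusted p = 0.71), so a difference between lines was not shown for them. At 6 h none of the 43 passed by limma (background 0.121%). At an unadjusted p under 0.05 there were 6, with no count over all genes at that level.

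The genes that collagen chains need for folding, secretion, crosslinking and binding were given by lists written from general knowledge. In A549 at 24 h with GSI, 0 of the 20 measured modifying enzymes and chaperones rose and 1 fell, P4HA3, a prolyl hydroxylase chain (−0.47 ± 0.07, adjusted p = 9.4e-05, limma). Of 10 collagen receptors 1 fell, ITGA2, the alpha chain of a collagen-binding integrin (−0.49 ± 0.09, adjusted p = 5.5e-04). Of 13 collagen-binding proteoglycans and glycoproteins 1 fell, TGFBI, a secreted collagen-binding protein (−0.30 ± 0.06, adjusted p = 0.0045). Among 15 genes for propeptide processing and crosslinking, 15 basement membrane partners such as the laminins and nidogens, and 10 collagen-degrading proteases, 0 passed by limma. Beside these counts, 0.885% of all genes fell, 1.32% rose and 2.21% passed in either direction. The medians of these 6 lists were −0.035 to 0.026, beside 0.007 over all genes. No fibroblast, endothelial or leukocyte marker passed in A549 at 24 h, while KRT19, a keratin of simple epithelium, rose by 0.62 ± 0.11; its part in the collagen values was not tested. At 6 h in A549 the rises were 3 modifying enzymes and chaperones, 1 receptor, 2 basement membrane partners, 2 proteoglycans and glycoproteins and 1 protease. In addition 1 modifying gene was lower. Over all genes 11.6% rose and 1.51% fell. With quantile normalisation none of these rises passed by limma, 1 modifying gene and 1 receptor were lower, and the median of the modifying genes was −0.087 in place of 0.092. At 24 h in A549 that normalisation gave 2 lower receptors and 1 lower gene for processing and crosslinking. In H460a 0 passed at either time apart from a fall of CDH1 by 0.57 ± 0.09 at 6 h, under background.

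Some collagen genes also changed with time in culture, with no inhibitor. Counting both directions, 39.5% of them passed in A549 and 23.3% in H460a, under the shares of all genes. In A549 vehicle cells, at 24 h against 6 h, 10 of 43 genes rose and 7 fell, where 29.2% of all genes rose, 15% fell and 44.2% passed in either direction. With quantile normalisation 7 rose and 9 fell, and 13 of the 17 genes kept their call. In H460a vehicle cells 10 rose and 0 fell, where 15.1% of all genes rose, 15.3% fell and 30.4% passed, and all 10 kept their call with quantile normalisation, while centring gave 8 rises and 2 falls. Leaving out A549 vehicle array 2 at 24 h took the count in A549 to 11.

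Of the type IV genes COL4A4, COL4A5 and COL4A6 rose with time in both lines. COL4A4, a chain of the specialised basement membranes of kidney and lung, had levels of 7.75, 8.13, 7.85 and 7.84 at 24 h against 6.69, 6.94, 6.76 and 6.90 at 6 h in A549 vehicle. In H460a it had 9.26, 9.29, 9.46 and 9.37 at 24 h against 7.60, 7.54, 8.04 and 7.68 at 6 h. The times do not overlap in either line, with rises of 1.07 ± 0.11 (adjusted p = 6.2e-09, limma) and 1.63 ± 0.11 (adjusted p = 2.2e-13). The A549 vehicle arrays at 6 h were under background, so the rise in A549 also depends on the background. Of the 2 other probe sets of COL4A4, 1 passed in the opposite direction in A549. COL4A5 rose by 1.04 ± 0.09 in A549 and 0.68 ± 0.09 in H460a, and COL4A6, its head-to-head neighbour, by 0.68 ± 0.07 and 0.38 ± 0.07. The 1 other COL4A5 probe set passed in neither line and went the opposite way in A549. The 2 other COL4A6 probe sets passed in the same direction in both lines. The start sites of COL4A5 and COL4A6 lie 380 bases apart at the nearest on chromosome X, those of COL4A3 and COL4A4 419 bases apart on chromosome 2. COL4A3 stayed under background, with a mean of 6.29 at both times in A549 vehicle. COL4A1 had a rise of 0.31 ± 0.10 in A549 that became −0.04 with quantile normalisation, and COL4A2 had 0.10, which became −0.33 (adjusted p = 3.7e-04).

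**Figure D5:**
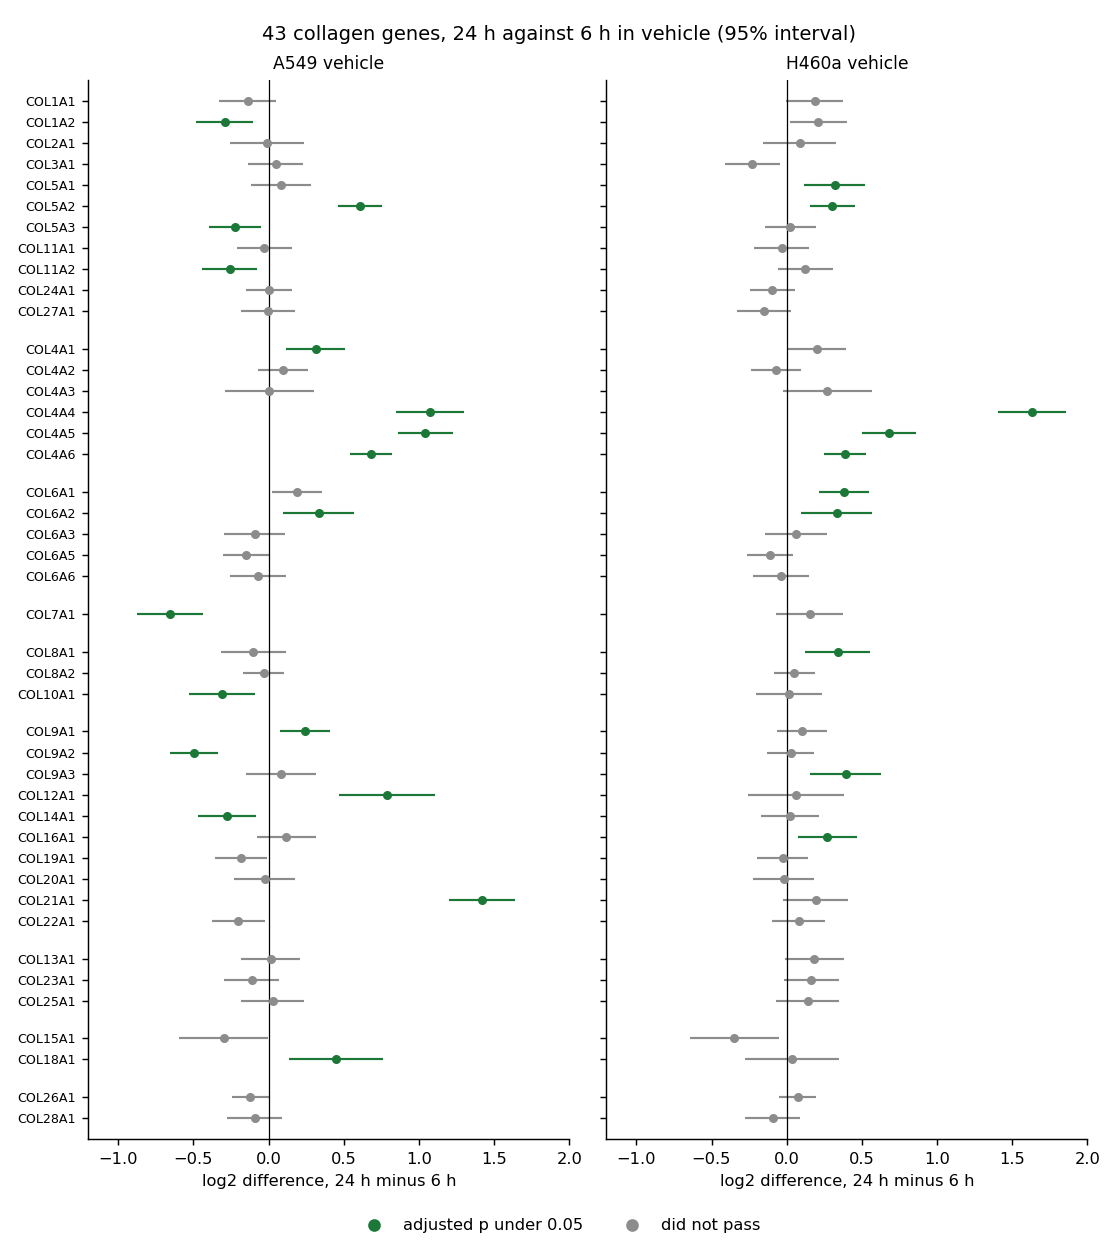
Log2 difference of 24 h minus 6 h in vehicle for the 43 collagen genes in A549 (left) and H460a (right), ordered by class, with 95% intervals; green marks an adjusted p under 0.05. COL4A4, COL4A5 and COL4A6 lie to the right of 0 in both lines, and COL21A1 and COL12A1 in A549.

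Outside type IV, COL21A1 rose by 1.42 ± 0.11 with time in A549 vehicle, with levels of 7.64, 7.95, 7.42 and 8.20 at 24 h against 6.36, 6.28, 6.35 and 6.55 at 6 h, under background at 6 h. In A549 GSI arrays COL21A1 had 7.01, 7.09, 7.04 and 6.87 at 24 h against 6.33, 6.36, 6.62 and 6.46 at 6 h, so its level was higher at 24 h there too, by less. COL12A1 rose by 0.79 ± 0.16 and COL5A2 by 0.61 ± 0.07 in A549. COL7A1 fell by 0.66 ± 0.11 (adjusted p = 1.1e-05, limma) and COL9A2 by 0.50 ± 0.08 in A549. Smaller rises were those of COL18A1 (0.45 ± 0.15), COL6A2 (0.33 ± 0.12) and COL9A1 (0.24 ± 0.08). Smaller falls were those of COL10A1 (−0.31 ± 0.11), COL1A2 (−0.29 ± 0.09), COL14A1 (−0.27 ± 0.09), COL11A2 (−0.26 ± 0.09) and COL5A3 (−0.22 ± 0.08). COL9A1, COL10A1, COL1A2 and COL14A1 were under background at both times. With quantile normalisation COL18A1 had 0.14, COL6A2 0.12 and COL10A1 −0.25, and none of the 3 passed. Each of these 8 genes also lost its call without 1 of the A549 vehicle arrays, namely COL18A1 (24 h array 2 or 3), COL6A2 (those or 6 h array 4), COL9A1 (24 h array 3 or 4 or 6 h array 4), COL10A1 (24 h array 2 or 4 or 6 h array 3), COL1A2 (24 h array 2 or 6 h array 1), COL14A1 (24 h array 3 or 6 h array 2 or 3), COL11A2 (24 h array 2 or 3 or 6 h array 3 or 4) and COL5A3 (24 h array 2 or 3 or 6 h array 1, 2 or 4). In H460a COL5A1, COL5A2, COL6A1 and COL6A2 rose by 0.32 ± 0.10, 0.30 ± 0.07, 0.38 ± 0.08 and 0.33 ± 0.12, and COL8A1 by 0.34 ± 0.11. The other probe sets of COL5A1 (2), COL5A2 (1) and COL6A2 (1) went the same way but did not pass. Of the 7 others of COL6A1, 5 went the same way and 3 passed. Both other COL8A1 probe sets passed in H460a, in opposite directions, with 0.60 ± 0.14 and −0.63 ± 0.16. COL16A1 (0.27) and COL9A3 (0.39) also rose in H460a and were under background there. Without 1 array the call was lost for COL5A1 (6 h array 1), COL6A2 (6 h array 3 or 24 h array 1), COL8A1 (6 h array 1 or 2), COL9A3 (6 h array 2) and COL16A1 (6 h array 3, 24 h array 2 or 3), with adjusted p of 0.050 to 0.17 by limma. COL6A2 (adjusted p = 0.13) and COL16A1 (adjusted p = 0.077) also lost it without the 4 arrays that stood apart.

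Lines differed in these changes with time, tested as the difference between lines, for 11 of 43 genes (25.6%). This share was under the 35.5% of all genes that passed, of which 24.4% were higher in A549 and 11.1% lower as shares of all genes. The difference was 1.23 ± 0.15 for COL21A1, 0.73 ± 0.22 for COL12A1, −0.81 ± 0.15 for COL7A1 and −0.56 ± 0.16 for COL4A4, in each case A549 minus H460a. COL4A4 and COL21A1 were under background in A549 vehicle at 6 h, and COL12A1 and COL21A1 in H460a. The count was 5 higher and 6 lower, and 3 and 10 with quantile normalisation, where 7 of the 11 kept their call and COL4A5, COL4A6, COL5A2 and COL8A1 did not.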

How the data were processed

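RNA was measured on Affymetrix arrays of 32 samples. Per the submitters' processing notes the authors used RMA (version not stated in the sources used here). They deposited intensity values of 54675 probe sets, on a linear scale judging from the values, and were log2-transformed here with no further scaling. Controls (62), probe sets with several symbols (1801) and with none (11721) were left out, and 41091 stand for 19775 genes, the platform annotation giving the symbols.

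The 8 group means were fitted with limma 3.58.1 (lmFit, eBayes) in R 4.3.3 over all 32 arrays (31.89 degrees of freedom, 7.888 from the prior), with Benjamini-Hochberg adjustment across all genes for each comparison. The steps were run on simulated data with independent noise and changes added only to A549 GSI arrays at 24 h. Such data cannot test shifts in intensity between arrays or the other comparisons, and the outcome is not given here. Tables and figures used Python 3.11.15, pandas 2.3.3 and matplotlib 3.10.9.

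The collagen genes, lists and rules were chosen with earlier results of these data known. Genes named are those past the threshold with GSI that also pass with quantile normalisation, the strongest 10 in each direction with arrays that do not overlap for time and line, and always COL4A1 to COL4A6, COL5A1, COL5A2, COL1A1, COL1A2 and COL3A1. COL28A1 between lines, COL8A1, COL9A3 and COL16A1 over time in H460a, COL10A1 and COL14A1 over time in A549, COL7A1 with GSI and single probe sets were described after their values were seen. Alternatives are in the closing section; single probe sets, centring, the block over all groups, quantile normalisation of the lists over time and between lines and the difference between lines in the change with time were added after seeing the data.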

Additional observations from a re-analysis of the deposited data

Results flagged for a closer look

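Of 112 groups of 4 arrays of 14 collagen genes, 3 held an array far from the others of its group, where chance alone would give about 1 in 20 groups. All 3 were COL4A6. In H460a with GSI at 24 h array 3 had a log2 level of 11.60, against 11.76 to 11.79 in the other 3. In H460a vehicle at 6 h array 3 had 11.46, against 11.23 to 11.26, and in A549 vehicle at 6 h array 2 had 10.13, against 10.02 to 10.03. Array 3 of H460a vehicle at 6 h is the one with the ACTB difference of 2.19.

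The effect of GSI differed between lines at 24 h for COL4A1 (−0.59, A549 minus H460a) and COL5A1 (−0.68). Within A549 it differed between times, 24 h minus 6 h, for COL4A1 (−0.83), COL4A2 (−0.56), COL5A1 (−0.84), COL5A2 (−0.38) and COL21A1 (−0.86). The change in vehicle over time differed between lines, A549 minus H460a, and was more positive in A549 for COL4A5 (0.36), COL4A6 (0.30), COL5A2 (0.30), COL12A1 (0.73) and COL21A1 (1.23). It was more negative for COL1A2 (−0.50), COL4A4 (−0.56), COL7A1 (−0.81), COL8A1 (−0.44), COL9A2 (−0.52) and COL11A2 (−0.38). With quantile normalisation 4 of these 11 differences in the vehicle change did not pass, COL4A5 (0.098), COL4A6 (0.031), COL5A2 (−0.0074) and COL8A1 (−0.36). Of the differences in GSI effect between times, those of COL4A2 and COL5A2 did not pass with it either. COL8A1 was under background in A549, COL12A1 and COL21A1 in H460a, and COL1A2 in both lines. In A549 vehicle, COL4A4 and COL21A1 were under background at 6 h and COL9A2 at 24 h.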

How the results depend on the processing

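Of 1625 repeats of 77 gene results past the threshold, 1464 kept direction and call, 157 kept direction only and 4 reversed. Reversed were COL4A1 in A549 vehicle over time, −0.041 with quantile normalisation over all arrays and −0.041 within each line, and COL5A2 in the line difference of that change, −0.0074 and −0.0019. Counts of collagen genes past the threshold stayed within 1.5 times under the other settings, with these exceptions. For GSI in A549 at 6 h (2 genes) the count was 1 with quantile normalisation within each line, 0 with the arrays of the comparison alone, 0 without the 4 arrays that stood apart in mean intensity or ACTB, 0 with a difference of at least 0.58 as well and 1 with each probe set tested by itself. For GSI in A549 at 24 h (5 genes) it was 3 among genes at or above the median level and 3 with a difference of at least 0.58. For the effect at 24 h minus 6 h in A549 (5 genes) it was 3 with either quantile normalisation, without the 4 arrays and with a difference of at least 0.58. For time in A549 vehicle (17 genes) it was 10 at or above the median level and 7 with a difference of at least 0.58, for time in H460a vehicle (10 genes) 2 with that difference, for the lines (25 genes) 15 and 16, and for the line difference over time (11 genes) 3. With each array left out in turn the counts were 0 to 4 for GSI in A549 at 6 h, 4 to 5 at 24 h, 0 in H460a at 6 h and at 24 h, 0 to 1 and 1 to 3 for the difference between lines at 6 h and 24 h, 4 to 6 for 24 h minus 6 h in A549, 0 in H460a, 11 to 20 and 9 to 12 for time in A549 and H460a, 22 to 26 for the lines and 9 to 14 for the line difference over time. Whether the replicate numbers pair the samples is not known. Deviations from the group means of same-numbered GSI and vehicle arrays correlated at −0.35 to 0.32. These correlations cannot decide it, since no further scaling was done here and the mean intensity of the arrays also varies. With the replicate number as a block the difference between lines at 24 h held for 1 gene in place of 2, with the other counts within 1.5 times. The cause of these shifts was not tested. The number of arrays and signal near background limit the low genes.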

Other observations

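In H460a vehicle cells, at 24 h against 6 h, 11 of the 20 genes that modify and fold collagen chains rose and 1 fell, with a median difference of 0.33, where 15.1% of all genes rose and 15.3% fell and the median over all genes was 0.006. Of 15 basement membrane partners 8 rose and 0 fell by limma. These counts were the same with quantile normalisation. In A549 vehicle cells 11 of the 20 modifying genes rose and 1 fell, with a median of 0.31, where 29.2% of all genes rose and 15% fell, but with quantile normalisation 5 rose and 7 fell and the median was −0.036. The basement membrane partners in A549 likewise gave 7 rises and 2 falls of 15, and 4 and 4 with quantile normalisation, so no direction is given for either list in A549. Between the lines in vehicle, A549 was higher for 4 and lower for 13 of the 20 modifying genes (4 and 12 with quantile normalisation), where 28.8% of all genes were higher, 27.9% lower and 56.7% passed in either direction. Of 10 collagen receptors A549 was higher for 5 and lower for 1, a share close to that of all genes, and ITGA2 was higher in A549 by 2.99 ± 0.06 (SE) on the log2 scale. P4HA3 was higher in A549 by 0.70 ± 0.05. These values are a description, with no explanation tested.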
